A study of Mus musculus and Rattus norvegicus with 51 samples.

Results

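The 37 genes described here mark lymphocytes: 18 are T cell genes, 11 are genes of natural killer (NK) cells and of cytotoxic killing, and 8 are genes of B and plasma cells. They were taken from a named list, and all 37 were found in both tables of mouse liver read counts, among 24421 genes in 1 table and 24982 in the other. T cells recognise antigen through a receptor that signals through the CD3 chains, and they divide into helper cells (CD4) and killer cells (CD8). NK cells and killer T cells destroy target cells with perforin and granzymes, while B cells carry a surface antigen receptor and mature into antibody-secreting plasma cells. The liver is known for a resident population rich in NK and related lymphocytes, and lymphocytes gather in it during chronic injury.

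The study concerns redox isoforms of HMGB1, a nuclear protein that injured cells release, in the growth and the resolution of liver scarring, and its rat cells were not used here. All livers came from male mice and were lysed whole. In the first table the wild-type mice of the resolution stage had regressed for 1 week and received an HMGB1 antibody (HMGB1 Ab), [SO3] HMGB1 or BSA, and the mice of the fibrosis stage had received CCl4, a toxin that scars the liver, for 4 weeks with [O] HMGB1, [H] HMGB1 or BSA. Each of these 6 groups held 3 livers with 8355714 to 16327132 reads counted in genes. In the second table every mouse had been injected for 4 weeks with CCl4 or with MO, which the labels do not spell out. Hmgb1ΔHepΔMye mice, a deletion of Hmgb1 called the knockout below, had been given either Δ[O] HMGB1 (4 livers with CCl4 and 3 with MO) or WT HMGB1 (4 with CCl4 and 3 with MO), and wild-type mice had been given neither (4 with CCl4 and 3 with MO). These 21 livers held 22598631 to 39323123 such reads. The labels give no further detail on the deletion, on the bracketed forms or on how the constructs were given, and they do not tie a numbered sample to an animal of its own, so each p-value reflects how much these samples vary, which may be technical. The name of the second table holds AAV8 without saying what it carried. CCl4 livers are numbered 1 to 4 in the wild type, 1, 3, 4 and 5 with WT HMGB1 and 1, 2, 3 and 5 with Δ[O] HMGB1, and values are given in that order. The knockout with WT HMGB1 differed from the wild type in the deletion and in the construct together, and these cannot be told apart.

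Levels are given as CPM (a gene's count scaled to its library's total with TMM factors), and a gene was called where the adjusted p of edgeR's quasi-likelihood test over all genes of the table was under 0.05. Differences are on the log2 scale, each followed by its standard error (SE). All 37 genes were scarce: 34 averaged under 5 CPM in both tables, and 22 in the first and 25 in the second averaged under 1 CPM. The 4 hepatocyte markers together (Alb, Apoa1, Ttr and Cyp2e1) came to 13510 to 29064 CPM in the first table and 73993 to 158898 CPM in the second as a check of the labelled tissue, and levels were compared only within a table. In whole tissue, fewer cells of a type and less RNA per cell cannot be told apart.

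Per length of exon, Zap70, the kinase that starts T cell receptor signalling, was the most abundant T gene on the average over all livers of a table, at 3.61 CPM per kb in the first table and 1.39 CPM per kb in the second. The CD3 chain genes Cd3d, Cd3e and Cd3g lay between 0.197 and 0.277 CPM per kb in both tables. Nkg7, a granule protein of killer cells, led the NK genes (1.24 and 1.13 CPM per kb), ahead of Gzma (1.02 and 0.858), which encodes granzyme A. Zap70 alone made up 30.9% of the summed T gene CPM in the first table and 21.9% in the second, so the T sum follows this gene more than the CD3 genes. Among the NK genes Il2rb, a receptor chain for interleukin-2 and interleukin-15, had the highest CPM (33.6% and 29.0% of the NK sum). Among the B genes Cd22, an inhibitory co-receptor of B cells, led in the first table (33.7%), and Jchain, the joining chain of secreted antibodies, had the highest mean in the second (36.6%). That mean rests on 1 liver with 28.7 CPM, and by the median over the 21 livers Jchain (2.66 CPM) was below Cd22 (3.21 CPM). Ifng, which encodes interferon-gamma, had 0 counts in 12 of 18 livers of the first table and in 8 of 21 of the second. Constant-region genes of the T cell receptor, such as Trac, and of antibodies, such as Ighm and Igkc, were found in neither table. They still count among the further T and B genes listed below.

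**Figure D1:**
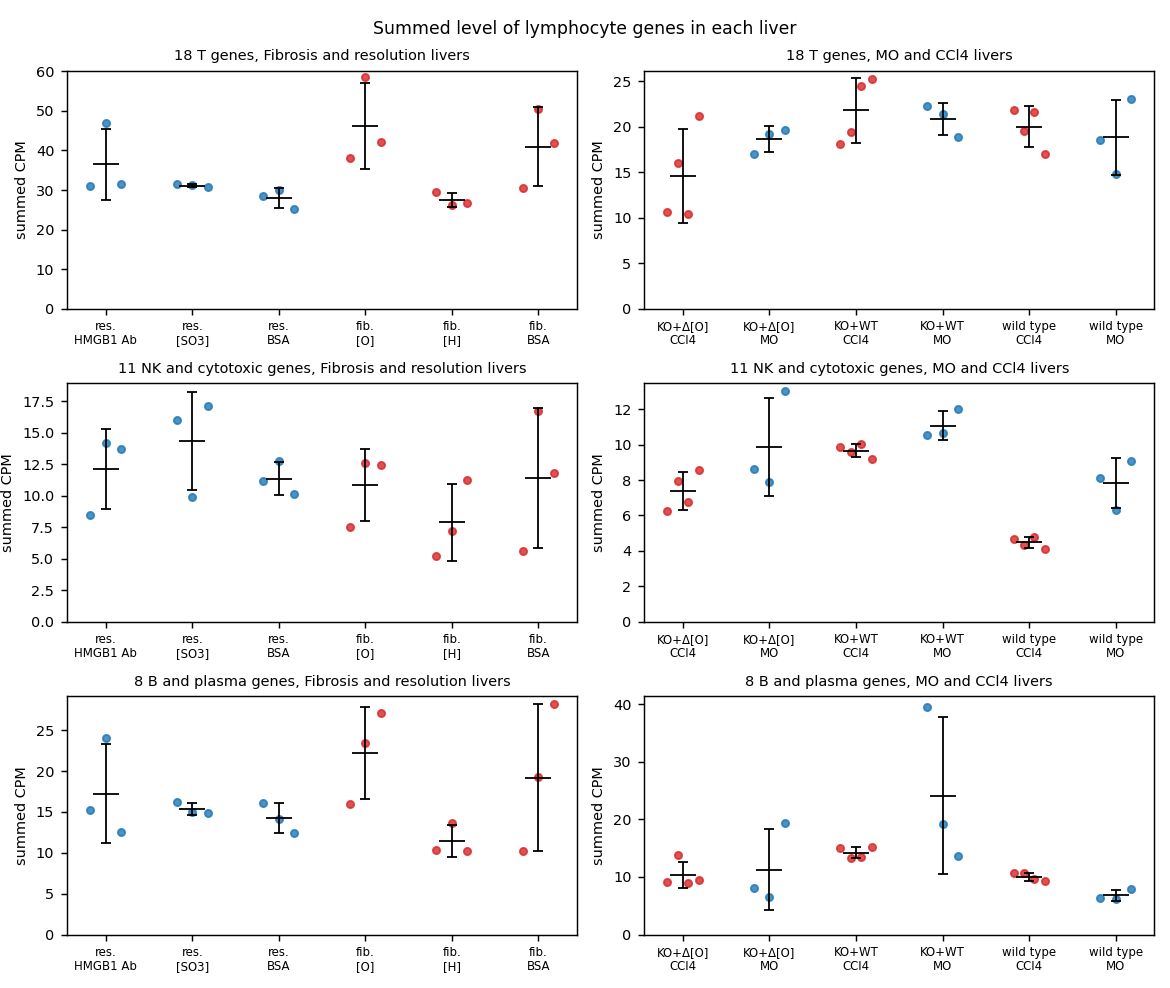
Summed CPM of the T genes (top), NK and cytotoxic genes (middle) and B and plasma genes (bottom) in each liver of the first table (left) and the second (right). KO stands for the knockout, with the construct after the plus sign. Points are livers, red for fibrosis or CCl4 and blue for resolution or MO, spread sideways for legibility; black marks are the mean and SD. The 4 wild-type CCl4 livers hold the lowest NK sums of the second table (4.69, 4.35, 4.78 and 4.11 CPM).

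In fibrosis most lymphocyte genes averaged higher with [O] HMGB1 than with [H] HMGB1, but none passed the test. Of the 37 genes, 24 were abundant enough to be tested in the first table (13 T, 6 NK and 5 B genes), and the low filter left out 5 T genes (Cd247, Cd3d, Cd5, Cd8b1 and Foxp3), 5 NK genes (Eomes, Ifng, Ncr1, Prf1 and Tbx21) and 3 B genes (Blk, Mzb1 and Pax5). With [O] over [H] HMGB1, 0 of the 24 were called, against 0% of all 13487 genes. The log2 fold change was positive for 21 of the 24 with a median of 0.52, against -0.06 over all genes. By class the medians were 0.49 for the T genes, 0.43 for the NK genes and 0.87 for the B genes. At an unadjusted p under 0.05 stood 5 of the 24 genes and 1413 of all genes, while DESeq2 called 0 of the 24 and 274 of all genes. The [O] and [H] livers did not overlap in 1 of 13 T, 1 of 6 NK and 3 of 5 B genes. Shares without overlap over all genes were not counted in any comparison, so a lack of overlap is a description only.

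Spn encodes CD43, a sialic acid-rich surface protein of T cells that many other leukocytes carry too. Its level was 9.53, 23.0 and 10.7 CPM with [O] HMGB1, against 4.89, 7.58 and 3.24 CPM with [H] HMGB1 and 4.38, 18.01 and 8.19 CPM with BSA. Every [O] liver stood above every [H] liver, while the BSA livers overlapped both (log2 1.46, SE 0.54, adjusted p = 0.282 for [O] over [H]). Samples with the same number deviated together in these groups, and in a fit of both groups alone with the number as a block Spn was called (log2 1.45, adjusted p = 0.0406), 1 of 230 genes called in that fit, against 0 genes without the block. That fit was chosen after seeing the data, and the block in the fit of all 6 groups called 1 gene, which was none of the 37.

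Jchain had 3.77, 8.45 and 8.42 CPM with [O] HMGB1, against 2.23, 3.30 and 1.27 CPM with [H] HMGB1 (log2 1.60, SE 0.61, adjusted p = 0.306), and every [O] liver was again above every [H] liver. Cd22 had 5.91, 6.60 and 8.62 CPM with [O] HMGB1, against 3.69, 3.76 and 4.13 CPM with [H] HMGB1 (log2 0.87, SE 0.34, adjusted p = 0.318), with no overlap. Markers of other cells moved with these values: the 5 genes that all leukocytes express (Ptprc, Coro1a, Laptm5, Cd53 and Cd52) summed to 237 to 403 CPM with [O] HMGB1, against 135 to 167 CPM with [H] HMGB1, and the 7 macrophage and Kupffer cell markers to 895 to 1195 CPM, against 419.9 to 556 CPM. None of these 12 markers was called, and their part in the lymphocyte values was not tested.

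Set against BSA, neither form moved a lymphocyte gene past the test. With [H] HMGB1 0 of the 24 genes were called (0% of all genes), 1 was at an unadjusted p under 0.05 (1448 of all genes), and DESeq2 called 0 of the 24 and 2 of all genes. The log2 fold change was negative in all but 1 of the 24 genes (Gzmb), with a median of -0.69 against 0.00 over all genes. With [O] HMGB1 0 were called (0%), 0 were at an unadjusted p under 0.05 (727 of all genes), DESeq2 called 0 of the 24 and 6 of all genes, and the median was -0.05. The comparisons share the BSA livers, among which liver 1 was low: its B gene sum was 10.2 CPM, against 19.3 and 28.1 CPM in livers 2 and 3, and its NK sum 5.65 CPM, against 16.7 and 11.8 CPM. The [H] livers had B sums of 10.4, 13.6 and 10.2 CPM and the [O] livers 16.0, 23.4 and 27.1 CPM. With [H] HMGB1 over BSA the markers of other cells were negative too: 5 of 5 of all leukocytes (median -0.86), 7 of 7 of macrophages and Kupffer cells (-1.02), 4 of 4 of neutrophils (-1.70) and 4 of 4 of dividing cells (-2.81). None was called, and their part in the lymphocyte values was not tested.

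**Figure D2:**
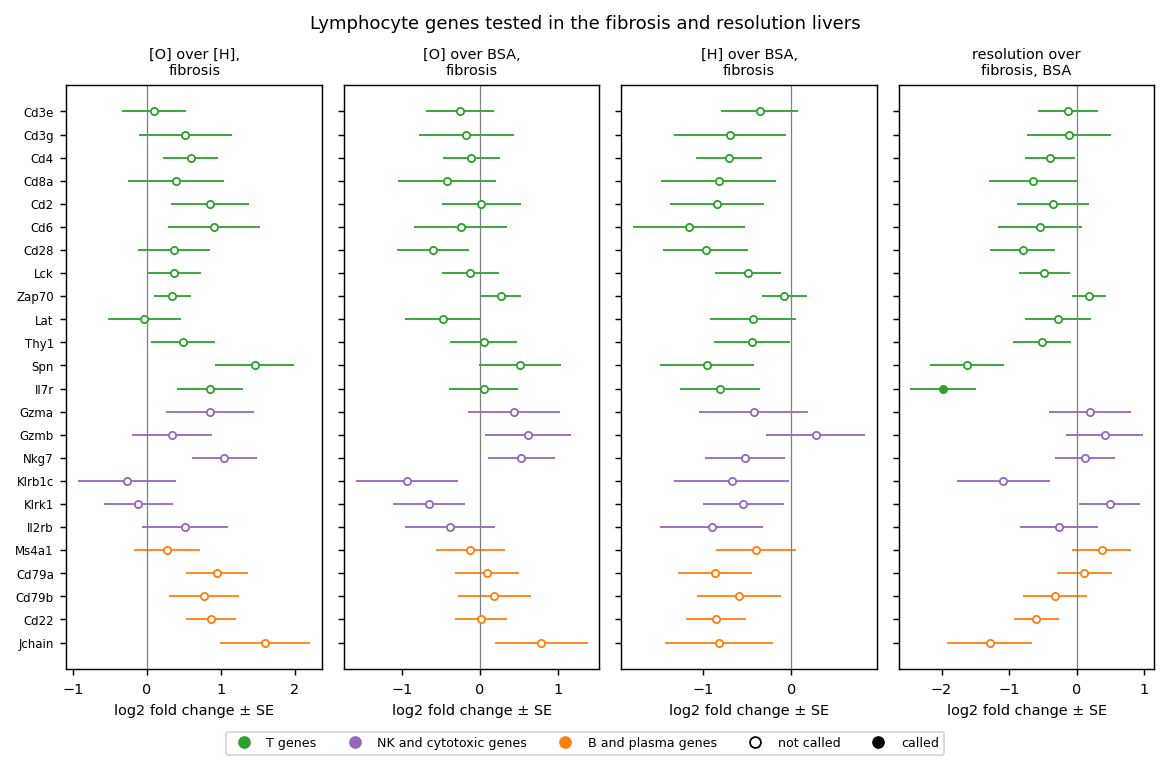
Log2 fold change ± SE of the 24 lymphocyte genes tested in the first table, for [O] over [H], [O] over BSA and [H] over BSA in fibrosis and for resolution over fibrosis with BSA. Green is T, purple NK and orange B genes; filled points were called. The single filled point is Il7r in resolution, at -1.97.

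During resolution the 24 genes did not pass the test with either treatment. With [SO3] HMGB1 over BSA 0 were called (0% of all genes), none was at an unadjusted p under 0.05 (812 of all genes), DESeq2 called 0 of the 24 and 80 of all genes, and the median log2 fold change was 0.17. With the HMGB1 antibody over BSA 0 were called (0%), 2 were at an unadjusted p under 0.05 (279 of all genes), DESeq2 called 0 of the 24 and 3 of all genes, and the median was 0.16. The 2 genes were Ms4a1, which encodes the B cell protein CD20 (0.509, 0.107 and 0.298 CPM with the antibody, against 0.821, 0.853 and 0.878 CPM with BSA), and Jchain (4.49, 5.37 and 3.38 CPM, against 0.821, 2.25 and 1.88 CPM). Both had an adjusted p of 1, and the groups did not overlap in either gene.

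Resolution and fibrosis were compared in the BSA livers. Il7r, the receptor for interleukin-7 that keeps naive and memory T cells alive, fell to 0.821, 0.853 and 0.753 CPM in resolution, against 2.59, 3.52 and 3.55 CPM in fibrosis (log2 -1.97, SE 0.49, adjusted p = 0.0273). The groups were far apart, with the highest resolution liver at about 0.853 CPM and the lowest fibrosis liver at 2.59 CPM. It was the only 1 of the 24 called, against 9.0% of all genes (2.40% higher and 6.60% lower), and the median of the 24 was -0.33 against -0.04 over all genes. The call was lost without fibrosis liver 2 or without any of resolution livers 1, 2 and 3 (adjusted p up to 0.111), and the fit of only the 2 BSA groups called 0 of the 24. The count over all genes moved with the same livers: it was 1214 with all of them, 2, 0 and 1 without resolution livers 1, 2 and 3, and 2377, 634 and 1405 without fibrosis livers 1, 2 and 3. Spn had 3.01, 4.27 and 2.51 CPM in resolution, against 4.38, 18.01 and 8.19 CPM in fibrosis, and missed the threshold (log2 -1.62, SE 0.55, adjusted p = 0.0678). DESeq2 called Spn as well (log2 -1.66, adjusted p = 0.0232), and without fibrosis liver 1 both Spn (-1.99, adjusted p = 0.0262) and Cd22 (-0.93, adjusted p = 0.0372) were called.

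Companion genes outside the 37 were put to the same test in resolution over fibrosis, where 6.60% of all genes were lower. The share called lower was above this in each list, on 1 to 3 genes each. It ran from 7.69% of the further T cell genes tested to 17.6% of the chemokines and receptors. Without resolution BSA liver 1, 2 or 3 the test called 2, 0 and 1 of all genes. Most of the calls below were thus lost in each of those fits. Among 13 tested of 35 further T cell genes 1 was lower, Tcf7, a transcription factor of naive T cells (log2 -1.68, adjusted p = 0.0183). Among 10 tested of 28 further NK and cytotoxic genes 1 was lower, Ccl5, a chemokine of killer cells (log2 -3.27, adjusted p = 0.0314). Among 18 tested of 30 further B and plasma genes 2 were lower, Blnk, an adaptor of B cell receptor signalling (log2 -1.77, adjusted p = 0.0226), and Cd180 (log2 -1.17, adjusted p = 0.0472). Among 17 tested of 20 lymphocyte chemokines and receptors 3 were lower, Cxcl10, Ccr2 and Cx3cr1 (log2 -3.19, -1.95 and -1.39). Leukocyte markers summed to 144 to 165 CPM in resolution, against 166 to 360.4 CPM in fibrosis, and their part in these values was not tested.

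In the second table the deleted gene was checked first. Hmgb1 had 61.7 to 92.2 CPM in knockout livers with Δ[O] HMGB1 and CCl4, 131 to 215 CPM with Δ[O] HMGB1 and MO, 44.9 to 74.1 CPM with WT HMGB1 and CCl4, 63.9 to 74.7 CPM with WT HMGB1 and MO, 57.2 to 107 CPM in wild-type livers with CCl4 and 72.8 to 77.3 CPM in wild-type livers with MO. Hmgb1 counts thus did not separate the knockout groups from the wild type as lower, and those of the Δ[O] MO livers were higher. The genotypes are taken from the labels, and whether the count includes RNA of the given construct is not stated in the sources used here. Lyz2, a gene of myeloid cells, was lower in every knockout CCl4 liver, at 1.76 to 5.55 CPM with Δ[O] HMGB1 and CCl4 and 4.76 to 9.51 CPM with WT HMGB1 and CCl4, against 94.7 to 218 CPM in the wild type with CCl4.

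Of the 37 genes, 35 were tested in this table (17 T, 10 NK and 8 B genes; Foxp3 and Ifng were too low). In wild-type livers the 4 B genes called in CCl4 over MO were all higher and the 3 NK genes called were all lower, while the T genes gave 3 higher and 1 lower calls. CCl4 over MO gave 5 calls of 35 in knockout livers with Δ[O] HMGB1, against 24.2% of all 14129 genes: 1 was higher (12.9% of all genes) and 4 lower (11.4%). In knockout livers with WT HMGB1 it gave 8 calls, against 47.3%: 4 were higher (23.3%) and 4 lower (24.0%). In wild-type livers it gave 11 calls, against 46.3%: 7 were higher (22.8%) and 4 lower (23.5%). As shares of 35 these are 14.3%, 22.9% and 31.4%, each below the share of all genes, and the shares were not compared at matched abundance. The lists' medians lay at -0.28, -0.07 and -0.01, against -0.04, -0.03 and 0.00 over all genes.

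Cd4 was the only 1 of 17 T genes called lower with CCl4 in the wild type. Cd4, the co-receptor of helper T cells (chr6:124864693-124888247, GRCm38.p6), had 0.624, 0.831, 0.696 and 0.411 CPM in wild-type livers with CCl4, against 2.76, 2.90 and 4.16 CPM with MO. All 4 CCl4 livers lay below 1 CPM and all 3 MO livers above 2.7 CPM, and the fall passed the test (log2 -2.33, SE 0.26, adjusted p = 1.35e-06). In the knockout Cd4 had 1.61, 2.11, 2.23 and 2.25 CPM with WT HMGB1 and CCl4, against 1.66, 1.59 and 1.59 CPM with WT HMGB1 and MO (log2 0.35, SE 0.26, adjusted p = 0.275). It had 1.24, 2.26, 1.51 and 2.17 CPM with Δ[O] HMGB1 and CCl4, against 2.41, 1.73 and 1.48 CPM with Δ[O] HMGB1 and MO (log2 -0.06, SE 0.25, adjusted p = 0.885). Both pairs of knockout groups overlapped. The CCl4 response of the knockout with WT HMGB1 minus that of the wild type was 2.68 on the log2 scale (SE 0.37, adjusted p = 0.000206), the largest difference of responses among the 35 genes.

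Cd3e, a signalling chain of the T cell receptor, had 0.569, 0.332, 0.290 and 0.635 CPM in wild-type livers with CCl4, against 0.411, 0.328 and 0.739 CPM with MO (log2 -0.13, SE 0.43, adjusted p = 0.827), and the groups overlapped. Cd8a, the co-receptor of killer T cells, rose to 0.705, 0.720, 0.348 and 0.859 CPM with CCl4, against 0.165, 0.109 and 0.370 CPM with MO (log2 1.57, SE 0.52, adjusted p = 0.0177). The groups overlapped by 1 liver each, and its call was lost without MO liver 1 or 2 (adjusted p up to 0.0786). Markers of Kupffer cells, the resident macrophages of the liver, moved with Cd4: Clec4f had 49.1 to 74.3 CPM in wild-type livers with CCl4, against 203 to 238 CPM with MO (log2 -1.81, adjusted p = 6.78e-07), and Timd4 had 5.62 to 10.2 CPM, against 16.9 to 19.7 CPM (log2 -1.27, adjusted p = 0.000425). Lag3, an inhibitory receptor that like CD4 binds MHC class II, likewise had 0.443 to 0.895 CPM with CCl4, against 2.02 to 4.57 CPM with MO (log2 -2.10, adjusted p = 2.95e-05). The part of Kupffer cells in the Cd4 value was not tested. Their whole list split: of 7 macrophage and Kupffer cell markers 2 were higher and 2 lower, and their sum was 274 to 483 CPM with CCl4, against 481 to 527 CPM with MO.

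Spn rose with CCl4 in wild-type livers and in knockout livers with WT HMGB1. Its level was 2.44, 2.60, 2.32 and 2.61 CPM in wild-type livers with CCl4, against 0.946, 1.15 and 0.693 CPM with MO (log2 1.43, SE 0.28, adjusted p = 0.000342). In the knockout with WT HMGB1 it was 4.89, 6.14, 6.90 and 7.87 CPM with CCl4, against 2.62, 2.13 and 2.61 CPM with MO (log2 1.39, SE 0.25, adjusted p = 0.000161). Neither pair of groups overlapped. In the knockout with Δ[O] HMGB1 it was 1.46, 2.95, 1.45 and 2.05 CPM with CCl4, against 1.52, 1.61 and 2.44 CPM with MO, with overlap (log2 0.09, SE 0.25, adjusted p = 0.838). The difference between the 2 knockout responses was -1.30 (SE 0.35, adjusted p = 0.181), which missed the threshold. It passed without MO liver 3 of the WT HMGB1 group (-1.35, adjusted p = 0.0389), where 1119 of all 14283 genes tested passed, against 0 with that liver, or without CCl4 liver 2 of the Δ[O] group (-1.56, adjusted p = 0.0497), where 25 passed. Leukocyte markers moved with Spn: 1 of 5 were called higher with CCl4 in the knockout with Δ[O] HMGB1, 5 of 5 with WT HMGB1 and 3 of 5 in the wild type, and their part in these values was not tested.

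Il7r rose with CCl4 in the same groups. It had 2.93, 2.44, 2.09 and 1.49 CPM in wild-type livers with CCl4, against 0.535, 0.382 and 0.508 CPM with MO (log2 2.22, SE 0.43, adjusted p = 0.000367), and 1.12, 1.99, 1.29 and 1.94 CPM in the knockout with WT HMGB1 and CCl4, against 0.501, 0.962 and 0.487 CPM with WT HMGB1 and MO (log2 1.31, SE 0.41, adjusted p = 0.0121). The groups did not overlap in either genotype. The second call was lost without MO liver 1 or 3 (adjusted p up to 0.0565). With Δ[O] HMGB1 it had 0.879, 2.03, 0.792 and 0.749 CPM with CCl4, against 0.461, 0.763 and 1.27 CPM with MO (log2 0.43, SE 0.40, adjusted p = 0.465), where only CCl4 liver 2 stood above the MO livers.

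Cd3d, another CD3 chain, fell in both knockout groups. It had 0.273, 0.372, 0.475 and 0.236 CPM with Δ[O] HMGB1 and CCl4, against 0.779, 0.924 and 0.896 CPM with Δ[O] HMGB1 and MO (log2 -1.32, SE 0.36, adjusted p = 0.0115), and 0.334, 0.461, 0.117 and 0.375 CPM with WT HMGB1 and CCl4, against 0.925, 1.21 and 0.615 CPM with WT HMGB1 and MO (log2 -1.47, SE 0.36, adjusted p = 0.00250). In the wild type it had 0.352, 0.305, 0.319 and 0.149 CPM with CCl4, against 0.452, 0.437 and 0.554 CPM with MO (log2 -0.74, SE 0.40, adjusted p = 0.140). Its partner genes Cd3e and Cd3g had log2 fold changes of -0.45 and -1.05 with Δ[O] HMGB1, -0.65 and -0.36 with WT HMGB1 and -0.13 and -0.62 in the wild type, and none of these 6 values passed the test without a replicate block. Lck, a kinase bound to CD4 and CD8, fell with Δ[O] HMGB1 to 0.819, 0.868, 0.872 and 1.18 CPM with CCl4, against 1.10, 1.57 and 1.76 CPM with MO (log2 -0.67, SE 0.22, adjusted p = 0.0301), but CCl4 liver 5 overlapped MO liver 1. That call was lost without MO liver 2 or 3 or CCl4 liver 1, 2 or 3 (adjusted p up to 0.141) and with DESeq2.

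Zap70 averaged lower with CCl4 in both knockout groups. It fell in the knockout with WT HMGB1 to 1.94, 1.51, 1.88 and 1.44 CPM with CCl4, against 5.43, 5.48 and 3.95 CPM with MO (log2 -1.54, SE 0.52, adjusted p = 0.0210), with no overlap, though the call was lost without MO liver 1 or 2 or CCl4 liver 5 (adjusted p up to 0.0600). With Δ[O] HMGB1 it had 0.728, 0.545, 0.713 and 4.73 CPM with CCl4, against 3.40, 3.45 and 2.26 CPM with MO (log2 -0.91, SE 0.54, adjusted p = 0.232). CCl4 liver 5 stood alone there, and without it Zap70 was called (-2.19, adjusted p = 5.71e-05). With all livers kept, Zap70 was also called with the number as a block (-1.69, adjusted p = 0.0263). Same-numbered samples did not correlate over 0.1 in that comparison. In the wild type it had 7.97, 6.76, 9.19 and 4.52 CPM with CCl4, against 7.90, 4.04 and 9.79 CPM with MO (log2 -0.03, SE 0.50, adjusted p = 0.969). A pseudogene, Gm18828, lies within the span of Zap70, and whether reads of the pseudogene were counted for Zap70 was not tested.

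**Figure D3:**
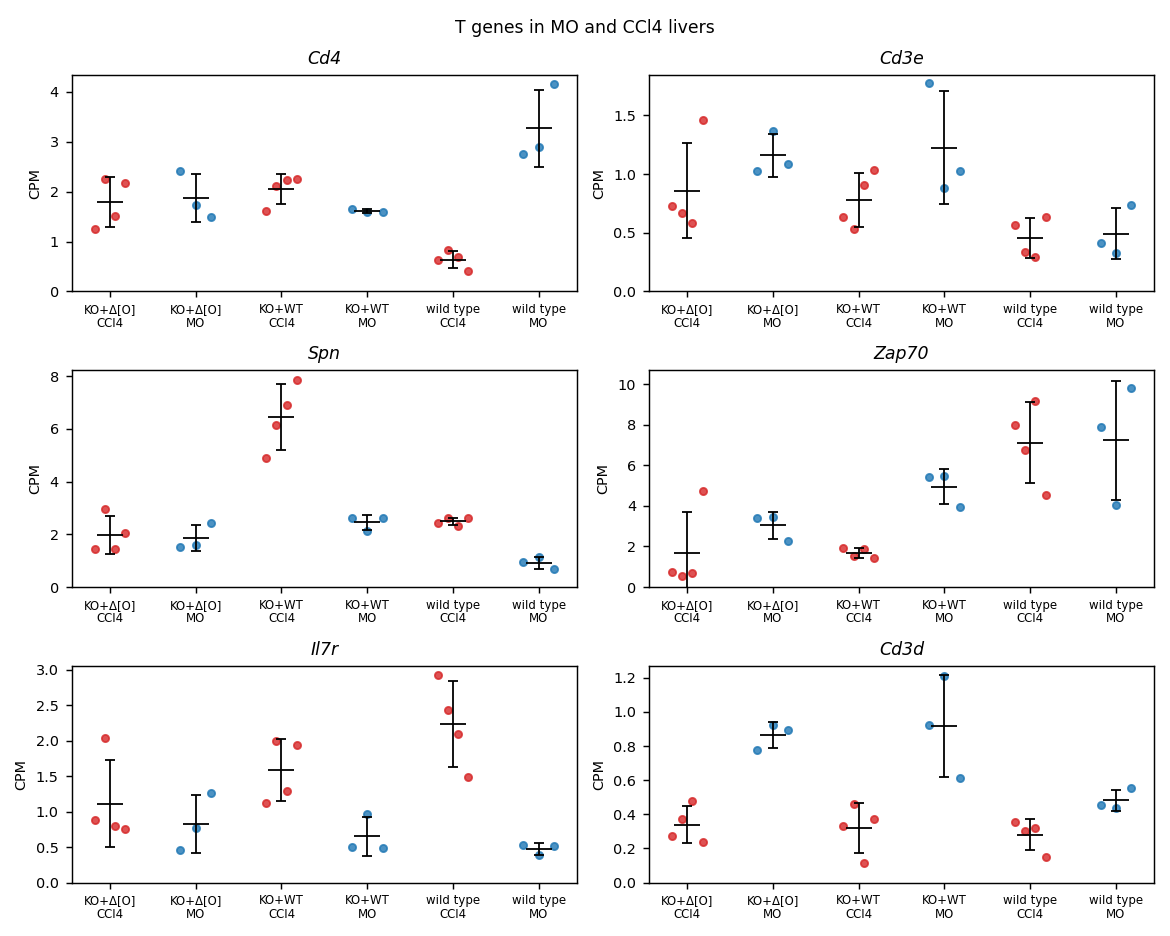
CPM of 6 T genes in each liver of the second table. KO stands for the knockout, with the construct after the plus sign. Points are livers, red for CCl4 and blue for MO, spread sideways for legibility; black marks are the mean and SD. Cd4 is below 1 CPM in all 4 wild-type CCl4 livers, and Spn is above 4 CPM only in the 4 knockout livers with WT HMGB1 and CCl4.

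The summed NK and cytotoxic genes were lowest in wild-type livers with CCl4. The sum there was 4.69, 4.35, 4.78 and 4.11 CPM, against 8.10, 6.28 and 9.10 CPM with MO, without overlap, and 0 of 10 tested genes rose while 3 fell, against 22.8% of all genes higher and 23.5% lower. Il2rb fell to 1.33, 1.11, 1.45 and 1.23 CPM with CCl4, against 2.30, 2.57 and 2.45 CPM with MO (log2 -0.93, SE 0.23, adjusted p = 0.00231). Klrk1, the activating receptor NKG2D, fell to 0.895, 0.803, 0.667 and 0.635 CPM, against 2.26, 1.04 and 2.22 CPM with MO (log2 -1.29, SE 0.29, adjusted p = 0.00136). Gzmb, which encodes granzyme B, fell to 0.407, 0.249, 0.290 and 0.523 CPM, against 0.864, 0.710 and 1.11 CPM with MO (log2 -1.30, SE 0.47, adjusted p = 0.0290). None of these 3 pairs overlapped. The Gzmb call was lost without MO liver 1 or 3 or CCl4 liver 2 or 3 (adjusted p up to 0.110).

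In the knockout 1 of 10 NK genes was called with WT HMGB1, against 47.3% of all genes, and 3 with Δ[O] HMGB1, against 24.2%. These counts were not tested against each other. With WT HMGB1 the sum was 9.87, 9.57, 10.04 and 9.18 CPM with CCl4, against 10.5, 10.7 and 12.02 CPM with MO. Eomes, a transcription factor of NK and memory T cells, was the 1 called (0.243, 0.146, 0.440 and 0.312 CPM with CCl4, against 0.0771, 0.0418 and 0.0512 CPM with MO; log2 2.24, SE 0.74, adjusted p = 0.0173). It rested on 39 counts over the 4 CCl4 livers and 5 over the 3 MO livers, and its call was lost without MO liver 2 or 3 (adjusted p up to 0.0580). Only 5 of the 7 fits that left out 1 liver tested Eomes. It reached the minimum count of 10 only in CCl4 livers, with 15 and 10 in livers 4 and 5 of this group and 11 in Δ[O] liver 5. It thus passed the filter through livers where it was high, so its call is not independent of the filter. With Δ[O] HMGB1 Il2rb fell to 1.85, 2.40, 1.69 and 2.52 CPM with CCl4, against 3.51, 3.17 and 3.62 CPM with MO (log2 -0.70, SE 0.21, adjusted p = 0.0220). Klrb1c, which encodes the NK cell receptor NK1.1, fell to 0.121, 0.347, 0.370 and 0.276 CPM, against 0.283, 1.17 and 0.896 CPM (log2 -1.45, SE 0.46, adjusted p = 0.0269), and Gzma rose to 0.970, 1.24, 1.24 and 1.77 CPM, against 0.213, 0.562 and 1.02 CPM (log2 1.09, SE 0.36, adjusted p = 0.0305). The last 2 genes overlapped between groups. The Il2rb call was lost without MO liver 1 or 3 or CCl4 liver 1 or 3 (adjusted p up to 0.0966), that of Klrb1c without MO liver 2 or 3 or CCl4 liver 1 (up to 0.169) and that of Gzma without MO liver 1 or 2 or CCl4 liver 5 (up to 0.148). In the fit of only these 2 groups 1 of the 35 genes was called, Cd3d.

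Under CCl4 the knockout with WT HMGB1 had more RNA of several killing genes than the wild type. Of 10 NK genes tested 6 were higher and 0 lower, against 15.8% of all genes higher and 13.0% lower. Their median was 0.96 log2, against 0.02 over all genes. Gzma had 1.37, 1.17, 1.41 and 1.53 CPM in the knockout livers with WT HMGB1, against 0.515, 0.277, 0.580 and 0.299 CPM in the wild type (log2 1.69, SE 0.33, adjusted p = 0.000810). Prf1, which encodes the pore protein perforin, had 0.395, 0.534, 0.616 and 0.344 CPM, against 0.0542, 0.111, 0.174 and 0.224 CPM in the wild type (log2 1.77, SE 0.41, adjusted p = 0.00316), on 67 and 18 counts in all. Gzmb had 0.911, 0.777, 1.70 and 1.47 CPM, against 0.407, 0.249, 0.290 and 0.523 CPM in the wild type (log2 1.73, SE 0.42, adjusted p = 0.00416). The knockout livers were above the wild-type livers without overlap in all 3 genes.

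The other 3 NK genes called higher were 2 receptors and a granule protein. Il2rb had 3.01, 3.11, 2.29 and 1.47 CPM in the knockout livers with WT HMGB1, against 1.33, 1.11, 1.45 and 1.23 CPM in the wild type (log2 0.95, SE 0.21, adjusted p = 0.00187). Klrk1 had 1.82, 1.41, 1.17 and 1.50 CPM, against 0.895, 0.803, 0.667 and 0.635 CPM (log2 0.97, SE 0.27, adjusted p = 0.0114), and Nkg7 had 1.18, 1.31, 1.06 and 1.44 CPM, against 0.813, 0.637, 0.580 and 0.597 CPM (log2 0.92, SE 0.25, adjusted p = 0.00949). All 6 calls held when each of the 8 livers was left out in turn. Samples with the same number deviated together in these groups, and the block in a fit of both groups alone, chosen after seeing the data, lost the call of Nkg7 (adjusted p = 0.0841). Klrb1c, Ncr1, Eomes and Tbx21 were not called (log2 0.46, 0.52, 1.39 and 0.71). No NK gene passed the test of the difference between the CCl4 responses of the knockout with WT HMGB1 and the wild type (median 0.56). With MO the NK sums of the knockout livers with WT HMGB1 (10.5, 10.7 and 12.02 CPM) also lay above those of the wild-type livers (8.10, 6.28 and 9.10 CPM), a comparison that was not tested.

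The promoters of the 5 granule and receptor genes that were higher in that comparison and have an entry in RefSeq's promoter table are shown because all 5 hold the letters TGTGGT, the core bound by RUNX factors, which are known regulators of killer cell genes. Capitals mark TGTGGT or its reverse complement ACCACA, and each sequence runs from 250 bases before to 50 bases after a RefSeq start in GRCm38.p6.
Prf1 (chr10:61297586-61297885, plus strand): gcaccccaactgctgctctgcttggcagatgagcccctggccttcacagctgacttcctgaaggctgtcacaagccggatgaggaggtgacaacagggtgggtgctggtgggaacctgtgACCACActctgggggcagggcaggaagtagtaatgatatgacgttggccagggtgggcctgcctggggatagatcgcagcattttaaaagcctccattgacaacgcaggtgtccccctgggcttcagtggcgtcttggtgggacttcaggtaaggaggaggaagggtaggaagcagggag
Gzma (chr13:113100932-113101231, minus strand): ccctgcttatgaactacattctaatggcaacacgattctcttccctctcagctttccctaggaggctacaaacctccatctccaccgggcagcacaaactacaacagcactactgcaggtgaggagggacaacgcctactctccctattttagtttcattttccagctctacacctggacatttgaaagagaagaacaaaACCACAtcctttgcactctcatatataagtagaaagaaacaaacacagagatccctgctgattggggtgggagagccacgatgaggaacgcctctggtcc
Gzmb (chr14:56262285-56262584, minus strand): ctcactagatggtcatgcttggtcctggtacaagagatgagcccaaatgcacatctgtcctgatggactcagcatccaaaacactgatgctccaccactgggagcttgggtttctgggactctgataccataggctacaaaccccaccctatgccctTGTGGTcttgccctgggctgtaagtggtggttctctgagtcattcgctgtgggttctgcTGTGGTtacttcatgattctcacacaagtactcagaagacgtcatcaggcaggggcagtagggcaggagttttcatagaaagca
Klrk1 (chr6:129623815-129624114, minus strand): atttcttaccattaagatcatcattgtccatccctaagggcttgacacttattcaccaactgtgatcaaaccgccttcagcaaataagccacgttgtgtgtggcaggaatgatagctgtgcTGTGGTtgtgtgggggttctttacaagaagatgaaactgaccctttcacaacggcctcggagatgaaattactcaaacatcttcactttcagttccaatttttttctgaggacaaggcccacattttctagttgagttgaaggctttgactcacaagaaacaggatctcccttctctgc
Nkg7 (chr7:43436888-43437187, plus strand): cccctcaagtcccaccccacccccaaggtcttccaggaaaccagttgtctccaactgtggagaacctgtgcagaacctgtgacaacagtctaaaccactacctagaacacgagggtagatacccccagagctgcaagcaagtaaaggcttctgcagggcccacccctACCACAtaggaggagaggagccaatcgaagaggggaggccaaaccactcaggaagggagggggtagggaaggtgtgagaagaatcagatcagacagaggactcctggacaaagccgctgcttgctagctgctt
Gzmb holds the letters at 2 places, 93 and 34 bases before the start, and the other 4 genes at 1 place each, between 130 and 50 bases before it. TGTGGT was searched on both strands, in 31 promoters of 26 of the 37 genes, of which 12 hold it, against 16.8% of all 32851 mouse promoters in the table. The EBF letters CCCNNGGG were found in 4 of the 31 (13.7% of all promoters) and the T-box letters TCACACC in 1 (3.98%), that of Nkg7. The letters do not set the called genes apart. Among NK genes not called in that comparison, Klrb1c and Ncr1 hold TGTGGT too, while Eomes, Ifng and Tbx21 do not. T genes such as Il7r and Lat also hold it, and each listed promoter of Ncr1 was counted. These 5 promoters were picked after the values were seen, and a match of letters is a description, not a binding site.

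Several B genes rose with CCl4 in the wild type. Of 8 B and plasma genes tested 4 rose and 0 fell, with a median of 1.00 log2, against 22.8% of all genes higher and 23.5% lower. The B sum was 10.6, 10.6, 9.57 and 9.26 CPM with CCl4, against 6.38, 6.17 and 7.94 CPM with MO, without overlap. Ms4a1 had 0.949, 0.803, 0.638 and 0.299 CPM with CCl4, against 0.123, 0.219 and 0.0924 CPM with MO (log2 2.24, SE 0.57, adjusted p = 0.00338), on 94 and 9 counts. Cd79a, a signalling chain of the B cell receptor, had 0.841, 1.22, 0.725 and 1.12 CPM, against 0.494, 0.273 and 0.416 CPM (log2 1.27, SE 0.39, adjusted p = 0.0114). Both genes were higher in every CCl4 liver. Pax5, the transcription factor that keeps B cell identity, had 0.705, 1.02, 0.319 and 0.485 CPM, against 0.329, 0.219 and 0.231 CPM (log2 1.27, SE 0.45, adjusted p = 0.0251), with overlap, and Cd22 had 3.09, 3.21, 2.17 and 3.77 CPM, against 2.02, 1.64 and 1.85 CPM (log2 0.73, SE 0.27, adjusted p = 0.0343), without it. The call of Cd79a was lost without MO liver 2 (adjusted p = 0.0558), that of Pax5 without MO liver 2 or 3 or CCl4 liver 2 (up to 0.0901) and that of Cd22 without any MO liver or CCl4 liver 1, 2 or 4 (up to 0.107). Markers of other cells were called in the same comparison. Higher were 3 of 5 of all leukocytes, 3 of 4 of neutrophils, 3 of 4 of dividing cells and 5 of 6 of fibroblasts and stellate cells. Of 4 hepatocyte markers 3 were lower, and of 7 macrophage and Kupffer cell markers 2 were higher and 2 lower. The part of these markers in the B values was not tested.

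Neither plasma cell gene was called in the wild type. Mzb1, a chaperone for antibody secretion, had 0.298, 0.277, 0.464 and 0.224 CPM with CCl4, against 0.0411, 0.492 and 0.462 CPM with MO (log2 -0.01, SE 0.67, adjusted p = 0.994). Jchain had 2.66, 2.27, 4.12 and 1.68 CPM in wild-type livers with CCl4, against 2.51, 2.29 and 3.97 CPM with MO (log2 -0.12, SE 0.57, adjusted p = 0.881). In the knockout with WT HMGB1 it fell to 3.31, 2.53, 1.14 and 1.75 CPM with CCl4, against 28.7, 9.45 and 5.51 CPM with MO (log2 -2.73, SE 0.55, adjusted p = 0.000590), where MO liver 1 was highest. Mzb1 had 0.273, 0.340, 0.0881 and 0.250 CPM, against 1.85, 0.669 and 0.282 CPM (log2 -1.91, SE 0.56, adjusted p = 0.00853), and its call was lost without MO liver 1 (-0.92, adjusted p = 0.216). Jchain stayed called without that liver, at -1.77 (adjusted p = 0.0101). With Δ[O] HMGB1 Jchain had 2.00, 3.82, 2.01 and 3.11 CPM with CCl4, against 2.80, 1.97 and 9.30 CPM with MO (log2 -0.79, SE 0.55, adjusted p = 0.313), with MO liver 3 highest, and no B gene was called in that response. Cd22 rose in the knockout with WT HMGB1 to 5.80, 5.54, 6.49 and 7.62 CPM with CCl4, against 3.66, 3.64 and 3.84 CPM with MO (log2 0.77, SE 0.25, adjusted p = 0.0173), and this call was lost without MO liver 1 or 2 (up to 0.0549).

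The CCl4 responses of 2 B genes differed between the knockout with WT HMGB1 and the wild type. The difference was -2.21 for Ms4a1 (SE 0.71, adjusted p = 0.0436) and -2.61 for Jchain (SE 0.79, adjusted p = 0.0358). With Cd4 they made 3 calls among the 35 genes (8.57%), against 13.5% of all genes: 1 was higher (6.85% of all genes) and 2 lower (6.64%). Ms4a1 had 0.942, 1.26, 0.587 and 1.03 CPM in the knockout with WT HMGB1 and CCl4, against 1.04, 1.09 and 0.717 CPM with WT HMGB1 and MO, with overlap. The Ms4a1 call was lost in 11 of the 14 fits that left out 1 liver (wild-type MO 1, 2 and 3 and CCl4 1, 2 and 3; knockout MO 1 and 2 and CCl4 1, 4 and 5; adjusted p up to 0.117). The Jchain call was lost in 8 (wild-type MO 1 and 2 and CCl4 1, 2 and 3; knockout MO 1 and CCl4 4 and 5; up to 0.150). The Cd4 call was lost in none of them.

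**Figure D4:**
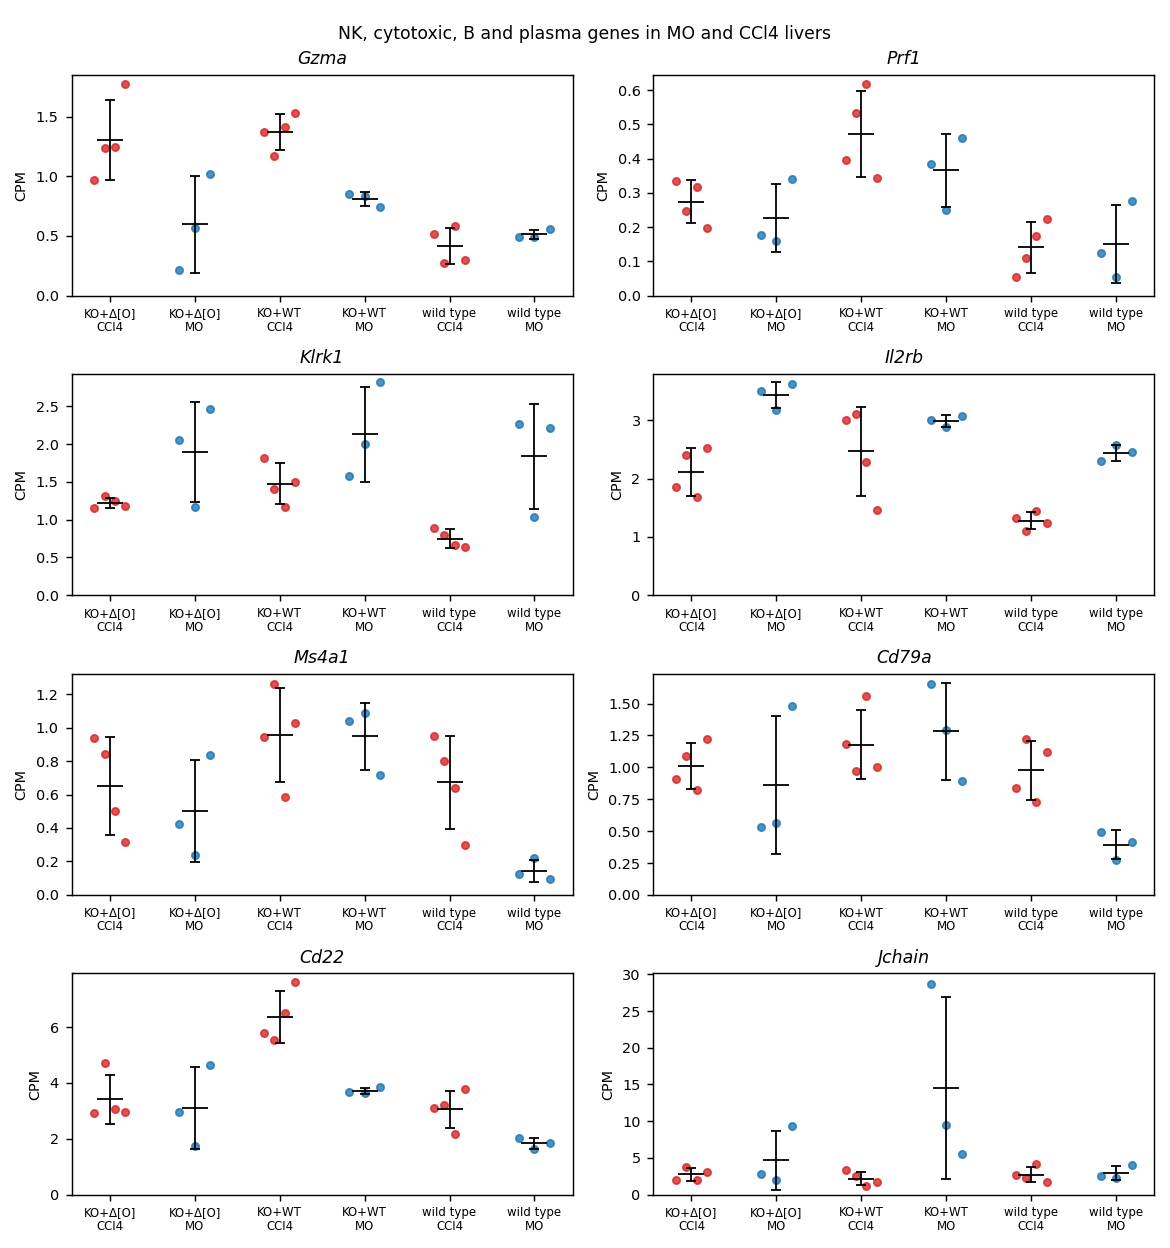
CPM of 4 NK and cytotoxic genes and 4 B and plasma genes in each liver of the second table. Points are livers, red for CCl4 and blue for MO, spread sideways for legibility; black marks are the mean and SD. Gzma and Il2rb are lower in the wild-type CCl4 livers than in the knockout livers with WT HMGB1 and CCl4, and Jchain reaches 28.7 CPM in 1 knockout MO liver.

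Some T and B genes also differed between the genotypes under CCl4. Called were 4 of 17 T genes (23.5%) and 1 of 8 B genes (12.5%), both below the 28.8% of all genes. Over all 35 genes the knockout with WT HMGB1 gave 10 higher and 1 lower calls than the wild type (31.4%, against 28.8% of all genes), a share near that of all genes. Cd4 had 1.61 to 2.25 CPM in the knockout, against 0.411 to 0.831 CPM in the wild type (log2 1.66, SE 0.25, adjusted p = 7.17e-05), Spn 4.89 to 7.87 CPM, against 2.32 to 2.61 CPM (log2 1.37, SE 0.22, adjusted p = 0.000150), and Cd22 5.54 to 7.62 CPM, against 2.17 to 3.77 CPM (log2 1.06, SE 0.23, adjusted p = 0.00217). Zap70 was the gene that was lower, at 1.44 to 1.94 CPM, against 4.52 to 9.19 CPM (log2 -2.07, SE 0.49, adjusted p = 0.00408). None of these 4 overlapped. With MO, Spn was also higher in the knockout livers with WT HMGB1 (2.13 to 2.62 CPM) than in the wild type (0.693 to 1.15 CPM). Cd22 was higher there too (3.64 to 3.84 CPM, against 1.64 to 2.02 CPM). Cd4 was lower with MO (1.59 to 1.66 CPM, against 2.76 to 4.16 CPM), and Zap70 overlapped. These MO differences were not tested. Cd3g, a CD3 chain, had 0.790, 0.461, 1.03 and 0.937 CPM, against 0.407, 0.249, 0.377 and 0.485 CPM (log2 1.08, SE 0.39, adjusted p = 0.0444), and this call was lost without any of the 4 wild-type livers or without knockout liver 1, 4 or 5 (adjusted p up to 0.125). The 5 leukocyte markers moved the same way (4 of 5 called higher), with sums of 187 to 215 CPM in the knockout and 75.3 to 122 CPM in the wild type, and their part in the lymphocyte values was not tested.

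Δ[O] HMGB1 set against WT HMGB1 in the knockout under CCl4 gave 2 calls of 35, both lower (5.71%). Of all genes 2.31% were called, 2.19% lower and 0.113% higher. Spn had 1.45 to 2.95 CPM with Δ[O] HMGB1, against 4.89 to 7.87 CPM with WT HMGB1 (log2 -1.70, SE 0.23, adjusted p = 0.000897), and was called in every alternative tried. Cd22 had 2.91 to 4.71 CPM, against 5.54 to 7.62 CPM (log2 -0.89, SE 0.23, adjusted p = 0.0464). The groups did not overlap in either gene. Samples with the same number deviated together here, and with the number as a block Cd22 was not called (-0.82, adjusted p = 0.104). Its call was also lost without any of the 4 WT HMGB1 livers or without Δ[O] liver 1, 3 or 5 (up to 0.205). Zap70 had 0.728, 0.545, 0.713 and 4.73 CPM with Δ[O] HMGB1, against 1.94, 1.51, 1.88 and 1.44 CPM with WT HMGB1 (log2 -0.07, SE 0.51, adjusted p = 0.966), and was called lower without Δ[O] liver 5 (-1.35, adjusted p = 0.0419).

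The 10 NK genes tested all had negative log2 fold changes with Δ[O] over WT HMGB1 under CCl4 (median -0.55), yet none was called. The T and B medians were -0.44 and -0.43, against 0.00 over all genes. The 5 leukocyte markers summed to 78.4 to 156 CPM with Δ[O] HMGB1, against 187 to 215 CPM with WT HMGB1, with 2 of 5 called lower, and the 7 macrophage and Kupffer cell markers to 213 to 451 CPM, against 453 to 528 CPM, with 3 called lower. Their part in the Spn and Cd22 values was not tested. With MO, Δ[O] against WT HMGB1 gave 0 calls of 35 (0% of all genes), with 3 of the 35 and 1549 of all genes at an unadjusted p under 0.05, and DESeq2 called 0 of the 35 and 22 of all genes. Without WT HMGB1 liver 3, Mzb1 and Jchain were called lower there (-2.93 and -2.01, adjusted p = 0.0114 and 0.0429), among 823 of all 14283 genes tested. That liver stood apart from its replicates: the chi-square of its gene counts per degree of freedom was 235 against liver 1 and 211 against liver 2, while livers 1 and 2 differed by 17.0. The difference of the 2 CCl4 responses gave 0 calls as well (0%), with 4 of the 35 and 2098 of all genes at an unadjusted p under 0.05, and DESeq2 called 0 of the 35 and 81 of all genes. Without the same WT HMGB1 liver 3 the test of this difference gave 1119 calls over all genes, and without Δ[O] CCl4 liver 2 it gave 25, with Spn among them in both fits.

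**Figure D5:**
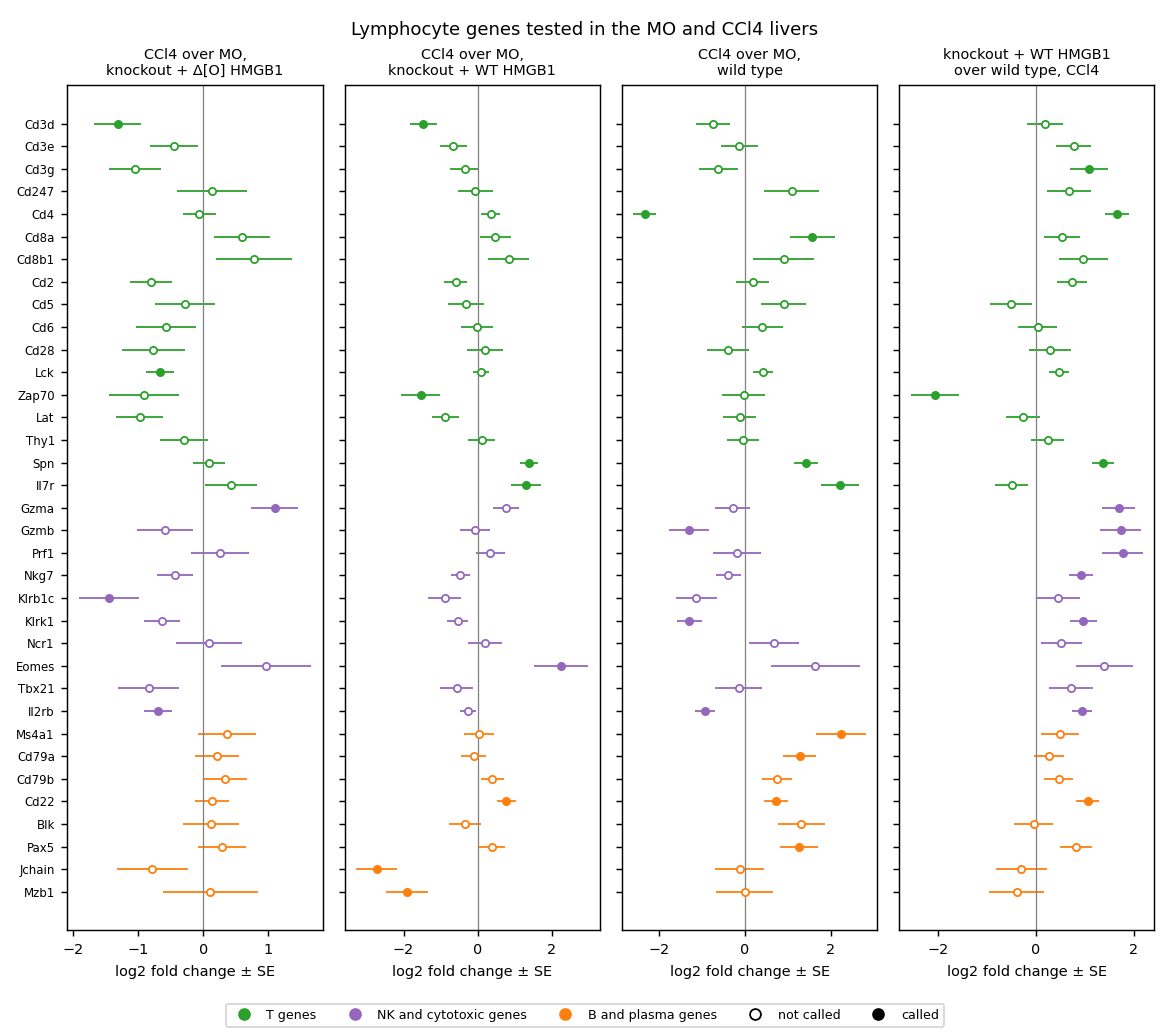
Log2 fold change ± SE of the 35 lymphocyte genes tested in the second table, for CCl4 over MO in each genotype and for the knockout with WT HMGB1 over the wild type under CCl4. Green is T, purple NK and orange B genes; filled points were called, and each panel has its own scale. Cd4 is the lowest point in the wild type (-2.33) and is not called in either knockout group.

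Further genes of the same cells, chosen with earlier results of these data known, were counted in the same way. The shares of all genes to set beside their counts are 15.8% higher and 13.0% lower for the knockout with WT HMGB1 over the wild type under CCl4, and 2.19% lower for Δ[O] over WT HMGB1 under CCl4. For CCl4 over MO, 12.9% of all genes were higher with Δ[O] HMGB1, 23.3% with WT HMGB1 and 22.8% in the wild type, where 23.5% were lower. Of 19 further T cell genes tested 4 were higher and 0 lower in the knockout with WT HMGB1 than in the wild type under CCl4, led by the co-stimulator Icos (log2 1.13, adjusted p = 0.00166) and Ly9 (log2 1.12, adjusted p = 0.000186). With CCl4 in the wild type 3 were higher and 4 lower, and Themis, a regulator of T cell receptor signalling, fell there and in both knockout groups (log2 -3.64 with Δ[O] HMGB1, -2.16 with WT HMGB1 and -1.95 in the wild type). Of 15 further NK and cytotoxic genes 3 were higher and 0 lower in the knockout with WT HMGB1 than in the wild type, led by the chemokine Xcl1 (log2 3.33, adjusted p = 0.000694) and the Fc receptor Fcgr3 (log2 1.68, adjusted p = 4.39e-06), which macrophages also express. With CCl4 in the wild type 3 of these 15 were higher, Sh2d1b1, Cd244a and Ccl5 (log2 4.64, 1.39 and 0.95), and 1 was lower. The 10 NK members tested went the other way there, with 0 higher and 3 lower.

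Of 19 further B and plasma genes 8 rose and 0 fell with CCl4 in the wild type (median 0.86), led by Derl3, a gene of the secretory pathway (log2 2.77, adjusted p = 0.000559), and by the B cell receptors Cr2 (log2 2.09, adjusted p = 0.0204) and Fcer2a (log2 1.99, adjusted p = 0.0161). In the knockout with WT HMGB1 7 rose, led by Cd180 (log2 1.86, adjusted p = 3.05e-05), Cd72 (log2 1.59, adjusted p = 4.37e-05) and the kinase Btk (log2 1.50, adjusted p = 4.89e-06), which myeloid cells express as well. With Δ[O] HMGB1 4 rose, and under CCl4 4 of the 19 were lower with Δ[O] than with WT HMGB1, Cd72, Cd180 and Cd37 among them (log2 -1.03, -1.02 and -0.75). Of 17 lymphocyte chemokines and receptors tested 10 were higher and 0 lower in the knockout with WT HMGB1 than in the wild type, with Cxcl9 and Cxcl11, which attract activated T and NK cells, among the leaders (log2 1.15 and 1.21). Cxcl13, which attracts B cells, was lower with Δ[O] than with WT HMGB1 under CCl4 (log2 -3.20, adjusted p = 0.0286).

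The other 15 of the 37 genes were called in none of the comparisons when all groups and livers were fitted together without a replicate block. Thy1, a surface protein of T cells that fibroblasts can carry too, was the most abundant of them, between 1.63 and 5.95 CPM in the first table and between 0.819 and 3.66 CPM in the second. Cd79b, the partner of Cd79a in the B cell receptor, lay between 1.39 and 4.94 CPM in the first table and between 0.567 and 2.11 CPM in the second. The remaining 13 stayed under 2 CPM in every liver of both tables. They are the T cell receptor chains Cd3e and Cd247, the surface receptors Cd2, Cd5, Cd6 and Cd28, the killer T cell chain Cd8b1, the adaptor Lat, the regulatory T cell factor Foxp3, the NK genes Ncr1, Tbx21 and Ifng and the B cell kinase Blk. Foxp3 and Ifng were too low to be tested in either table. Cd247, Cd5, Cd8b1, Ncr1, Tbx21 and Blk were tested only in the second. Leaving out 1 liver called 6 of the 15 in a CCl4 response, among them Blk with 1.49 log2 (adjusted p = 0.0390, without wild-type CCl4 liver 3) and Cd5 with 2.14 (adjusted p = 0.0165, without wild-type MO liver 1). The others were Cd2 with -0.85 (adjusted p = 0.0396, without CCl4 liver 5 of the WT HMGB1 group), and, in the Δ[O] group, Lat with -1.28 (adjusted p = 0.0251, without CCl4 liver 2), Thy1 with -0.83 (adjusted p = 0.0483, without CCl4 liver 5) and Cd8b1 with 2.32 (adjusted p = 0.0280, without MO liver 3).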

How the data were processed

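RNA of whole mouse liver was isolated with an RNAspin kit and made into TruSeq Stranded mRNA libraries, per the labels' protocols. The deposited tables hold raw read counts per gene symbol for 18 and 21 livers, which the authors made against mm10, per the submitters' processing notes. Which aligner, counter and strand setting were used is not given in the sources used here, so reads of overlapping or antisense genes, present at 10 of the 37 members, may be shared between them. The CCl4 and MO table had 2 rows with a repeated symbol, kept as separate rows, and reads in no gene (5.50% to 8.51% of its gene counts) or in more than 1 (0.579% to 1.66%) stayed out of library sizes and tests. Samples were grouped by their titles.

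Each table was fitted separately with edgeR 4.0.16 in R 4.3.3: filterByExpr (minimum count 10, minimum total 15), TMM factors and the robust quasi-likelihood test over all groups of the table, with Benjamini-Hochberg adjustment over all genes tested (13487 and 14129) and calls at 0.05. The code was tested on simulated data of each table, with genes drawn at all abundances that passed the filter. Of genes changed by 1 log2 unit, 23% were called for [H] HMGB1 against BSA and 66.7% for CCl4 against MO in the wild type. Of those changed by 3 units, 91% and 98% were called. Thus 0 calls in the first table do not show that no gene changed. Depth was 8355714 to 16327132 and 22598631 to 39323123 gene counts, which limits the precision of scarce genes. Alternatives were DESeq2 1.42.0, RLE factors, no low-count filter, a fit of only the groups compared, the replicate number as a block, and leaving out each liver. The members, companion lists and tests were chosen with earlier results of these data known. Every member called in any comparison and the most abundant of each class are given in full. From a companion list up to 3 called genes with the largest change are named. Sequences and gene positions come from RefSeq GRCm38.p6.

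Whether replicate numbers pair the samples was checked by the correlation, over genes, of same-numbered samples' deviations from their group means. The labels do not say what a number marks. Differently numbered samples were not correlated, so the check does not establish pairing. All pairs correlated over 0.1 between [H] and BSA (lowest 0.187), [O] and BSA (0.474), [O] and [H] (0.274), Δ[O] and WT HMGB1 with CCl4 (0.108) and with MO (0.289), and the knockout with WT HMGB1 and the wild type with CCl4 (0.116). They did not in the other comparisons. The most similar replicates differed beyond sampling noise (chi-square per degree of freedom at least 10.8), so each counted as 1 sample.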

Additional observations from a re-analysis of the deposited data

Results flagged for a closer look

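Among 66 groups of 4 livers examined for a sample far from the rest, each a gene in 1 CCl4 group, 5 held such a value, where chance alone gives about 1 in 20. Zap70 had 4.73 CPM in liver 5 of the knockout with Δ[O] HMGB1 and CCl4, against 0.545 to 0.728 CPM in the other 3. Lck had 1.18 CPM in the same liver, against 0.819 to 0.872 CPM in the other 3. Liver 2 of that group had 2.03 CPM of Il7r, against 0.749 to 0.879 CPM in the others, and 4.71 CPM of Cd22, against 2.91 to 3.06 CPM. Lck had 1.02 CPM in liver 3 of the knockout with WT HMGB1 and CCl4, against 1.34 to 1.37 CPM in the other 3.

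The CCl4 response of the knockout with WT HMGB1 differed from that of the wild type by edgeR's test of the difference in 3 genes. The difference was 2.68 for Cd4 (adjusted p = 0.000206), -2.21 for Ms4a1 (adjusted p = 0.0436) and -2.61 for Jchain (adjusted p = 0.0358) on the log2 scale. Timd4 and Clec4f, markers of Kupffer cells, and Lag3 had differences of 2.04, 1.45 and 2.40 in the direction of Cd4. Their part in the Cd4 value was not tested.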

How the results depend on the processing

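Of 41 member values called, 18 kept their call in every alternative and 22 in every fit that left out 1 liver, and none reversed. Calls were lost for 1 with DESeq2, 1 with RLE factors, 5 without the low-count filter, 6 in fits of only the groups compared, 6 with the replicate block and 14 with the block in fits of only the groups compared, an alternative chosen after seeing the data.

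Counts of members called changed as follows, and the cause was not tested except where fewer samples entered the fit. For [O] against [H] HMGB1 the block with only the groups compared gave 1 in place of 0. For resolution against fibrosis DESeq2 gave 2 and the block 2, while the fit of only the groups compared, with or without the block, gave 0 in place of 1. For CCl4 against MO the block with only the groups compared gave 3 in place of 8 with WT HMGB1 and 1 in place of 5 with Δ[O] HMGB1, where the fit of only the groups compared also gave 1. For Δ[O] against WT HMGB1 with CCl4 RLE factors, no filter, only the groups compared, the block and the block with only the groups compared each gave 1 in place of 2. The difference of responses between the knockout with WT HMGB1 and the wild type gave 1 without the filter in place of 3. Where all same-numbered samples correlated over 0.1, the block in the fit of all groups changed no call other than that of Cd22. In the knockout with WT HMGB1 against the wild type the block with only the groups compared lost Nkg7 (adjusted p = 0.0841) and Cd3g (adjusted p = 0.146).

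Leaving out each liver gave 7 to 12 calls for CCl4 in the wild type, 4 to 8 with WT HMGB1 and 2 to 6 with Δ[O] HMGB1. It gave 1 to 2 for Δ[O] against WT HMGB1 with CCl4, 0 to 2 with MO, 10 to 12 for the knockout with WT HMGB1 against the wild type, 1 to 5 and 0 to 1 for the differences of responses (against the wild type, and between constructs) and 0 to 3 for resolution against fibrosis. It gave 0 in the other comparisons. Other alternatives added calls too. For CCl4 against MO same-numbered samples did not correlate over 0.1. There the block called Blk (1.33, adjusted p = 0.0374) and Klrb1c (-1.07, adjusted p = 0.0304) in the wild type. With WT HMGB1 it called Cd2 (-0.88, adjusted p = 0.0452) and Cd3e (-1.14, adjusted p = 0.00748). With Δ[O] HMGB1 it called Cd2 (-0.95, adjusted p = 0.0375), Cd3g (-1.13, adjusted p = 0.0242) and Zap70 (-1.69, adjusted p = 0.0263). The block with only the groups compared also called Zap70 with Δ[O] HMGB1 (-2.13, adjusted p = 0.00970), and the block called Spn in resolution against fibrosis (-1.52, adjusted p = 0.0310). The fit of only the groups compared called Gzma (0.77, adjusted p = 0.0200), Klrb1c (-0.88, adjusted p = 0.0263) and Lat (-0.87, adjusted p = 0.0449) for CCl4 with WT HMGB1, Cd8b1 in the knockout with WT HMGB1 against the wild type (0.94, adjusted p = 0.0494) and Zap70 in the difference of their responses (-1.52, adjusted p = 0.0210). Leaving out 1 liver also added calls for Klrb1c in the wild-type response, Cd8a with WT HMGB1, Klrk1 with Δ[O] HMGB1, Pax5 between the genotypes under CCl4, and Cd79a and Mzb1 in the difference of responses against the wild type. Over all genes, resolution against fibrosis gave 1214 calls, against 2329 with DESeq2, 776 without the filter, 91 with only the groups compared and 5 with the block and only the groups compared. Without 1 BSA liver it gave 0 to 2377. Δ[O] against WT HMGB1 with MO gave 0, against 823 without WT HMGB1 MO liver 3, and the difference of their responses gave 0, against 1119 without that liver. Δ[O] against WT HMGB1 with CCl4 gave 326, against 573 with DESeq2, 108 with only the groups compared and 138 with the block and only the groups compared. CCl4 with WT HMGB1 gave 6685, against 2415 with the block and only the groups compared. [SO3] HMGB1 against BSA gave 0, against 80 with DESeq2, 49 with only the groups compared and 231 with the block and only the groups compared. Depth limits scarce members: 22 averaged under 1 CPM in the first table and 25 in the second.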
